A study of Mus musculus with 48 samples.

Results

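The genes described here are 8 small GTPases whose transcripts are known to respond quickly to stimuli in various cells: Gem, Rrad, Rem1 and Rem2 of the RGK family, Rhob, Rnd1 and Rnd3, whose proteins are relatives of RhoA, and Rasd1 of the Ras family. They are the rows whose symbol is one of these names, 8 of the 55335 gene rows in each of 4 tables of FPKM, which are fragment numbers divided by transcript length and by the library's total. The set was put together with results of these data known, among them the rise of Gem in cells given oligomycin A or the supernatant of such cells. The fold changes of the 8 genes under oligomycin A and under its supernatant are therefore given as descriptions without a p-value, and nothing is read from how many of them passed.

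Poly(A)-selected RNA was sequenced from MLO-Y4, an osteocyte-like mouse line, and from bone of wild-type C57BL/6J mice. Values of 27 of the 48 samples were used, in 9 groups of 3, and the other 21 samples, which include the receptor knockdown cells and the lower ADP dose, were not analysed here. Whether the 3 samples of a group came from different cultures or mice is not stated, so p-values here measure the spread between these samples alone, and that spread may be technical. In the first experiment MLO-Y4 cells were given oligomycin A, an inhibitor of the mitochondrial ATP synthase, at 50 µM for 1 h, or the same volume of DMSO (vehicle). Other MLO-Y4 cells received the supernatant of the oligomycin A cells or of the vehicle cells for 2 h, and no removal of the drug from it is described. The treatment labels of the vehicle samples name oligomycin A together with DMSO, while their titles and the protocol name DMSO alone, and the groups follow the titles. Those labels give the stock concentration of the drug, and the working concentration is the protocol's. In the second experiment MLO-Y4 cells were given ADP, a ligand of purinergic P2Y receptors, at 2 µM for 2 h, or no ADP. In the third, fragments of long and parietal bones of 1-month-old mice were cultured for 48 h in a group named transfer and in a control group; whose conditioned medium went to which group is not in the labels. A last group is untreated femoral and tibial cortical bone of 18-month-old mice, with no group to compare it with in its table; the protocol says that it was harvested with marrow and other nonosseous tissue, then cut up and washed.

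RGK proteins are Ras-like GTPases that bind the β subunits of voltage-gated calcium channels and lower calcium currents. Gem also acts on the cytoskeleton, and the amounts of RGK proteins are set largely through their transcripts. RhoB is a short-lived relative of RhoA that sits on endosomes and the plasma membrane. Rnd proteins bind GTP without hydrolysing it and oppose RhoA signalling, which loosens actin stress fibres. Rasd1 is a Ras-like protein named for its induction by dexamethasone.

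The MLO-Y4 libraries held an estimated 15000000 to 25400000 fragments, read from the steps at which low values cluster, the old bone libraries 29800000 to 34100000 and the 6 young bone libraries 1620000 to 6590000. Only 42.8% to 47.7% of the low values of MLO-Y4 libraries and 23.3% to 32.0% of those of bone lay within 0.1 of a whole fragment, so the bone figures are rough and counts were not recovered. Of 9 osteocyte marker genes, 4 averaged at least 1 FPKM in every MLO-Y4 group (Pdpn, Cd44, Gja1 and Phex), and the list summed to 286 to 414 FPKM. Sost was listed at 0 in all MLO-Y4 libraries, and Dmp1, Mepe and Fgf23 were at or near 0. In vehicle replicate 2, 3 non-coding genes (AY036118, Gm23935 and CT010467.1, picked after their values were seen) took 26.3% of all FPKM, against 0.194% to 0.394% in the other 17 MLO-Y4 libraries. A mean of at least 1 FPKM was needed for a test, and 5 of the 8 genes met it in each MLO-Y4 comparison (Gem, Rem1, Rhob, Rnd1 and Rnd3). Rrad, Rem2 and Rasd1 did not.

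**Figure D1:**
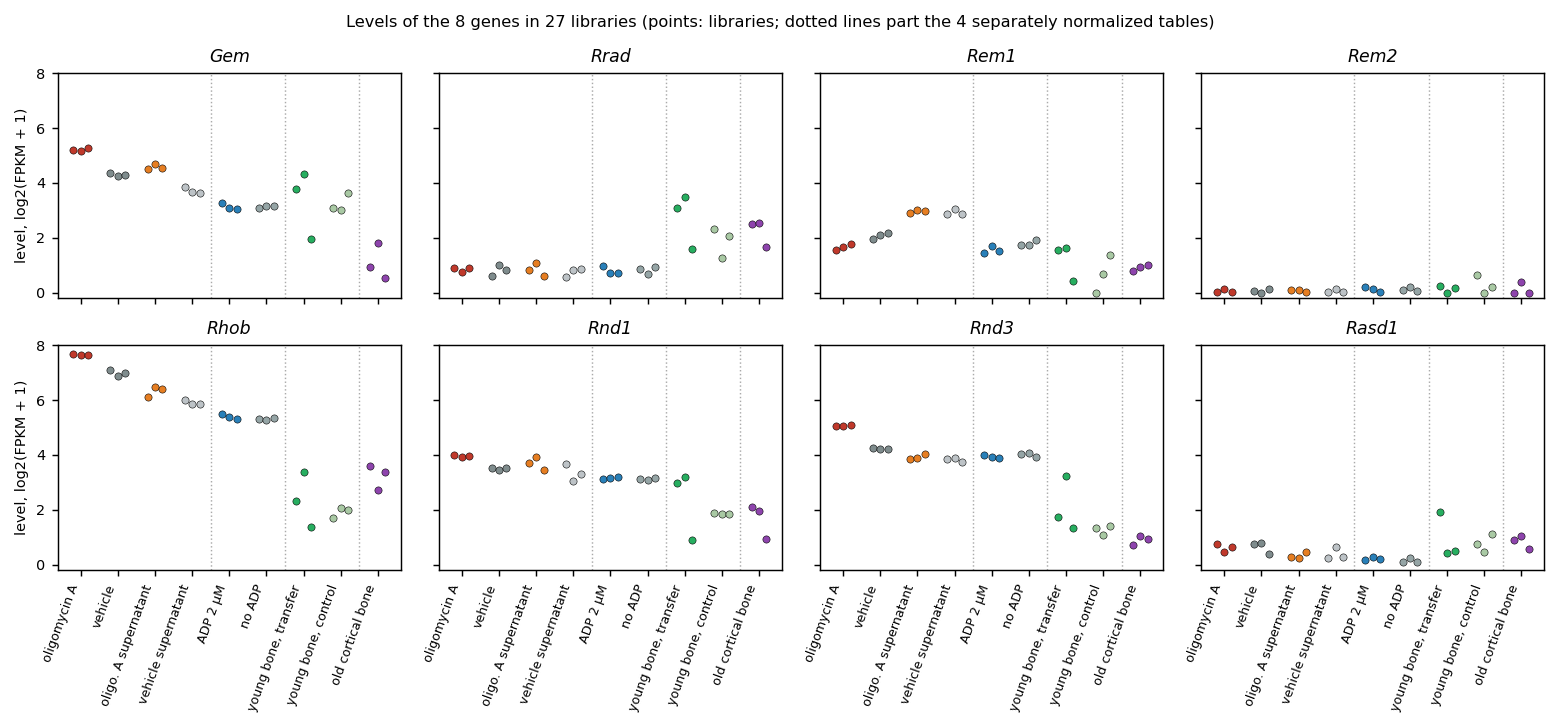
Levels of the 8 genes, as log2(FPKM + 1), in each of the 27 libraries; dotted lines part the 4 tables, which were normalized separately. Rhob is at 200 FPKM or near it in the oligomycin A libraries and below 11 FPKM in every bone library, and Rem2 is below 1 FPKM in all libraries.

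Under oligomycin A the transcripts of Gem, Rnd3 and Rhob were higher than with vehicle, at 1.93, 1.83 and 1.60 times its mean FPKM, and that of Rem1 was lower, at 0.673 times. Of the 5 tested genes 4 passed an adjusted p of 0.05 over all genes in limma, 3 higher and 1 lower, where 5.34% of 11902 genes passed (3.71% higher and 1.63% lower). The set was chosen with this comparison known. Over all genes 442 were higher and 194 lower, with 762 higher and 406 lower under median-of-ratios scaling and 257 higher and 19 lower after rescaling to one total. Vehicle replicate 2 had a summed FPKM of 352370, against 275796 and 279243 in the other vehicle libraries, so this rescaling lowers its values the most. The part of that library in calls lost after rescaling was not tested.

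Gem (ENSMUSG00000028214, chromosome 4, 11704457 to 11714752, plus strand, GRCm38, protein-coding) had 36.2, 35.2 and 37.2 FPKM in the oligomycin A libraries and 19.5, 17.9 and 18.8 FPKM in the vehicle libraries. Every treated library was above every vehicle library. Its log2 fold change, on the log2(FPKM + 1) scale used for all fold changes, was 0.92 ± 0.072 (SE). Rnd3 (ENSMUSG00000017144, chromosome 2, 51130438 to 51149111, minus strand) had 32.0, 31.9 and 32.9 FPKM with oligomycin A and 18.2, 17.4 and 17.3 FPKM with vehicle. The groups did not overlap, and the log2 fold change was 0.84 ± 0.063 (SE). Rnd3 encodes the Rnd protein also called RhoE, which binds and inhibits the kinase ROCK1.

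Rhob (ENSMUSG00000054364, chromosome 12, 8497661 to 8500009, minus strand), a gene of a single exon, had 204, 199.7 and 200.3 FPKM in oligomycin A libraries and 135, 117 and 125 FPKM in vehicle libraries. The treated libraries lay within 4 FPKM of one another and all above the vehicle libraries, with a log2 fold change of 0.68 ± 0.091 (SE). Rnd1, which encodes a second Rnd protein and lies on chromosome 15 (98663421 to 98677461, minus strand), had 14.9, 14.3 and 14.4 FPKM with oligomycin A and 10.5, 9.83 and 10.4 FPKM with vehicle. Its libraries did not overlap either, and its log2 fold change was 0.47 ± 0.14 (SE), but it did not pass over all genes in the fit of 12 libraries. In a fit of only these 6 libraries it did, the only 1 of 12 alternative fits in which it passed.

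The promoters of Rhob and Rnd3, which were both higher with oligomycin A, are shown as the 250 bases before the transcription start in RefSeq (build GRCm38.p6), 5′ to 3′ on the gene's strand. Capitals mark matches on either strand to CCAAT (the NF-Y site), to GGGCGG (the GC box of Sp1), to TATAAA (the TATA box) and to the CArG box, the site of serum response factor. The full cyclic AMP response element TGACGTCA, its core TGACG, the AP-1 site TGANTCA and the E-box CACGTG were searched as well, and any match to the full element also holds the core.
Rhob, chr12:8500010-8500259, minus strand: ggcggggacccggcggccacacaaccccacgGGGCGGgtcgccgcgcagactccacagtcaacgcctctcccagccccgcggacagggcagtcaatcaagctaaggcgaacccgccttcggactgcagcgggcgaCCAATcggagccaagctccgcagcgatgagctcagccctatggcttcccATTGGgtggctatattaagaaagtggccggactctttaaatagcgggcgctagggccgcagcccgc
Rnd3, chr2:51149112-51149361, minus strand: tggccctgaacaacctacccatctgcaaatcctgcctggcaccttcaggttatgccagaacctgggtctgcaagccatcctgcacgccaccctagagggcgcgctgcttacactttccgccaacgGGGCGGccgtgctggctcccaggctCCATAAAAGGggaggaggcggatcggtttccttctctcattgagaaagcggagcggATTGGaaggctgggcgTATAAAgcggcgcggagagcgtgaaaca
The Rhob window held 2 CCAAT matches, centred 113 and 64 bases before the start, and 1 GGGCGG match. The Rnd3 window held 1 CCAAT match, 1 GGGCGG match, 1 TATAAA match 25 bases before the start and 1 CArG box 95 bases before it. Of all 32851 windows of this length 33.8% held CCAAT, 32.7% GGGCGG, 12.4% TATAAA and 1.47% a CArG box. Neither window held the core TGACG, found in 17.8% of all windows, nor the full element (1.55%), the AP-1 site (6.75%) or the E-box (6.02%). RefSeq windows were matched for 4 of the 8 genes; those of Rem1 and Rem2 held 4 and 1 GGGCGG matches and no match to the other motifs. A match is a run of letters and not a measured binding site.

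Rem1 (ENSMUSG00000000359, chromosome 2, 152626951 to 152635198, plus strand) was the gene of the 5 that was lower. It had 1.95, 2.16 and 2.38 FPKM with oligomycin A and 2.85, 3.29 and 3.49 FPKM with vehicle, without overlap, and a log2 fold change of -0.41 ± 0.079 (SE). Its call was lost when oligomycin A replicate 1 or 2 or vehicle replicate 3 was left out, in a fit of only the 6 libraries and after rescaling to one total, where its log2 fold change lay between -0.41 and -0.30. Gem made up 92.3% ± 0.405 of the summed RGK level with oligomycin A and 82.3% ± 2.39 with vehicle, and Rem1 5.51% ± 0.455 and 14.1% ± 1.46 (SD, n = 3 each).

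Rrad, which encodes the RGK protein Rad, Rem2 and Rasd1 were low in these cells and were not tested. Rrad had 0.878, 0.672 and 0.887 FPKM with oligomycin A and 0.528, 0.994 and 0.764 FPKM with vehicle. Rasd1 had 0.682, 0.387 and 0.563 FPKM with oligomycin A and 0.681, 0.737 and 0.320 FPKM with vehicle. Rem2 stayed at or below 0.108 FPKM in all 6 libraries. For all 3 the treated and vehicle libraries overlapped. Rrad overlaps an antisense gene, Gm33023, and no source used here states that strand was used in counting, so its reads cannot be told apart from those of that gene.

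**Figure D2:**
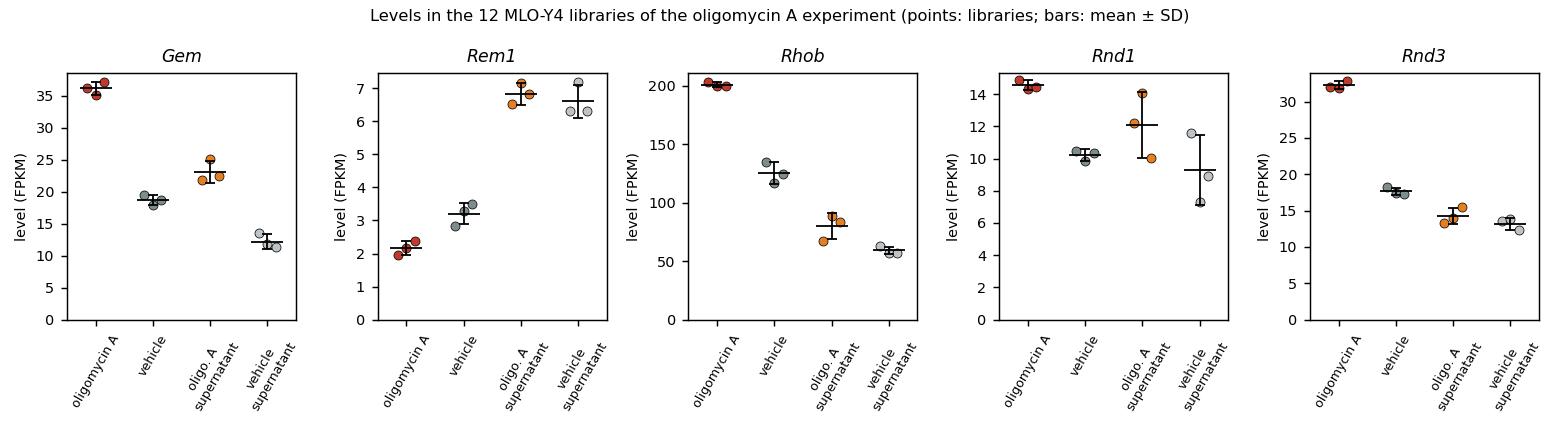
FPKM of the 5 tested genes in the 12 MLO-Y4 libraries of the oligomycin A experiment; points are libraries and bars the mean ± SD of 3. Gem and Rhob lie above the matching vehicle libraries in treated cells and in recipients of supernatant, Rnd3 does so in treated cells while its recipients overlap, and Rem1 sits highest in both groups of recipients.

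Around these 8 genes, lists of related GTPases, partners and regulators were counted under oligomycin A. There 5.34% of 11902 genes passed (3.71% higher and 1.63% lower), and the median log2 fold change of all genes was -0.00. Of 19 tested Ras family genes 0 passed in limma and 5 had an unadjusted p below 0.05, with a median of 0.03. Of all 11902 genes 2641 had an unadjusted p below 0.05, so the Ras family count is near that share. Of 16 tested RGK genes and calcium channel partners, Gem was higher and Rem1 lower, and no channel subunit, calmodulin or 14-3-3 gene passed in the main fit. With median-of-ratios scaling 1 gene of this list was higher and 2 were lower, so a gene other than Rem1 was lower there. After rescaling to one total 1 was higher and 0 lower. The β subunit genes Cacnb3 and Cacnb1, named after their values were seen, had 7.73 ± 0.668 and 2.00 ± 0.238 FPKM in vehicle cells (SD, n = 3).

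Of 33 tested genes of activators (GEFs) and inhibitors (GAPs) of small GTPases 5 were higher and 0 lower, with a median log2 fold change of 0.14. Vav3, a GEF gene, was higher by 0.28, Stard13, a RhoGAP gene, by 0.55, Arhgef18 by 0.46 and Plekhg3 by 0.25 on the log2 scale. With median-of-ratios scaling 7 of the 33 were higher, and with libraries rescaled to one total 0 were. Arhgdia, the gene of a protein that keeps RhoA and its relatives soluble, had a log2 fold change of -0.24, and Fnta, a subunit gene of the enzymes that attach farnesyl and geranylgeranyl groups to GTPases, of -0.25. Of 10 tested CREB and ATF genes 2 were higher, Atf4 at 1.21 and the coactivator gene Crebbp at 0.48, and of 6 SRF and MRTF genes 1, Mkl2 at 0.28. With median-of-ratios scaling 4 CREB and ATF genes were higher, and 1 Ras family gene was higher and 1 lower. After rescaling to one total 3 CREB and ATF genes were higher, and the calls of Arhgdia, Fnta and Mkl2 were lost. Rescaling to one total, which lowers the values of vehicle replicate 2 the most, moved the median log2 fold change of all genes to 0.12.

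Cells given supernatant of oligomycin A cells were compared with cells given supernatant of vehicle cells. Gem passed over all genes, and the other 4 tested genes did not: 1 of 5 passed, where 0.386% of 11902 genes did (0.277% higher and 0.109% lower), and this comparison too was known when the set was chosen. Gem had 21.9, 25.1 and 22.4 FPKM in recipients of oligomycin A supernatant and 13.5, 11.8 and 11.4 FPKM in recipients of vehicle supernatant. The groups did not overlap, and the log2 fold change was 0.87 ± 0.072 (SE).

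Rhob had 67.6, 88.8 and 83.4 FPKM in recipients of oligomycin A supernatant and 63.1, 57.4 and 57.3 FPKM in their controls. The groups did not overlap, but replicate 1 of the first group lay near the controls. The log2 fold change was 0.42 ± 0.091 (SE) and did not pass. Without that replicate it was 0.53 and passed, the only 1 of 12 alternative fits in which it did. Rnd1 had 12.2, 14.1 and 10.0 FPKM with oligomycin A supernatant and 11.6, 7.28 and 8.94 FPKM with vehicle supernatant, with overlap. Rnd3 had 13.3, 14.0 and 15.5 FPKM and its controls 13.5, 13.8 and 12.3 FPKM, with overlap and a log2 fold change of 0.10 with a 95% interval from -0.03 to 0.24. Rem1 had 6.52, 7.18 and 6.83 FPKM with oligomycin A supernatant and 6.30, 7.20 and 6.32 FPKM with vehicle supernatant, a log2 fold change of 0.05 with an interval from -0.13 to 0.22. Rrad, Rem2 and Rasd1 again overlapped between the groups and reached at most 1.10 FPKM. Among the lists above, the RGK list had 1 gene called, Gem itself. The others had 0 in limma, with unadjusted p below 0.05 for 4 GEF and GAP genes and 2 CREB and ATF genes.

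The responses of recipients and of treated cells were compared in the same model, as recipients minus treated cells, with exposures of 2 h and 1 h. Of the 5 tested genes 1, Rnd3, had a different response at an adjusted p below 0.05, where 0.445% of 11902 genes did (0.084% higher and 0.361% lower). Its log2 fold change was 0.10 in recipients and 0.84 in treated cells, a difference of -0.73 ± 0.089 (SE). Gem's log2 fold changes of 0.87 and 0.92 differed by -0.05, with a 95% interval from -0.27 to 0.18. Rhob's difference was -0.26 with an interval from -0.54 to 0.02, and Rnd1's was -0.11, from -0.54 to 0.32. Rem1's was 0.46, from 0.21 to 0.70, and did not pass over all genes. Since these differences are built from comparisons known when the genes were chosen, they are given as descriptions.

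Recipients of vehicle supernatant and vehicle-treated cells differ in medium and in duration, 2 h against 1 h. Rhob, Gem and Rnd3 were lower in the recipients, at 0.472, 0.653 and 0.748 times the mean FPKM of vehicle-treated cells, and Rem1 was higher, at 2.06 times. Of the 5 tested genes 4 passed, 1 higher and 3 lower, where 14.7% of 11902 genes passed (9.49% higher and 5.18% lower). This comparison shares its vehicle libraries with that of oligomycin A and vehicle. Its vehicle supernatant libraries are the controls of the supernatant comparison. Both of those comparisons were known when the set was chosen, so the p-values given here are not independent of that choice.

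Rhob had 63.1, 57.4 and 57.3 FPKM in recipients of vehicle supernatant and 135, 117 and 125 FPKM in vehicle-treated cells, a log2 fold change of -1.07 ± 0.091 (SE; limma, adjusted p = 7.01e-05). Gem had 13.5, 11.8 and 11.4 FPKM in the recipients and 19.5, 17.9 and 18.8 FPKM in vehicle-treated cells, a log2 fold change of -0.58 ± 0.072 (SE; limma, adjusted p = 0.000627). Rnd3 had 13.5, 13.8 and 12.3 FPKM in the recipients and 18.2, 17.4 and 17.3 FPKM in vehicle-treated cells, a log2 fold change of -0.39 ± 0.063 (SE; limma, adjusted p = 0.00271). The groups did not overlap for any of these 3 genes. Rem1 had 6.30, 7.20 and 6.32 FPKM in the recipients and 2.85, 3.29 and 3.49 FPKM in vehicle-treated cells, a log2 fold change of 0.85 ± 0.079 (SE; limma, adjusted p = 0.000118). Every recipient library was above every vehicle-treated one. Rnd1 overlapped, with a log2 fold change of -0.15 and a 95% interval from -0.45 to 0.15. With libraries rescaled to one total, Gem and Rnd3 were still lower, by -0.46 and -0.27 on the log2 scale, but no longer passed (limma, adjusted p = 0.0541 and 0.179), and the median of all genes moved to 0.14. Over all genes 1129 were higher and 617 lower, and 485 and 102 after this rescaling. Here too rescaling lowers the values of vehicle replicate 2 the most, and the part of that library in the lost calls was not tested.

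The list counts of the vehicle pair stand beside 14.7% of 11902 genes that passed (9.49% higher and 5.18% lower). Of 19 Ras family genes 3 were higher in recipients of vehicle supernatant and 2 lower. Among them were Rasl11a at 0.69, Rap1a at 0.26, Rap1b at 0.22 and Rasl11b at -0.56. Of 33 GEF and GAP genes 2 were higher and 5 lower, with Vav3 at 0.33, Arhgap23 at -0.40, Arhgef17 at -0.28 and Arhgef10 at -0.26. Limk1, the gene of a kinase that phosphorylates cofilin, had a log2 fold change of -0.25, and Mkl1, an SRF coactivator gene, of -0.24. With median-of-ratios scaling the GEF and GAP split was 2 higher and 10 lower. The share of all genes under that scaling is not given here, so nothing is read from this split. With libraries rescaled to one total the split was 2 and 0. That rescaling left 1 Ras family gene higher and 0 lower, and the calls of Limk1 and Mkl1 were lost.

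Over the 4 groups of this experiment the orders of the mean levels differed between the genes. Gem was ordered, from high to low, as oligomycin A, oligomycin A supernatant, vehicle and vehicle supernatant, at 36.2, 23.1, 18.7 and 12.2 FPKM, and no neighbouring groups overlapped. Rhob was ordered as oligomycin A, vehicle, oligomycin A supernatant and vehicle supernatant, at 201, 125, 79.9 and 59.3 FPKM, again with no overlap of neighbours. Rnd3 stood at 32.2 FPKM with oligomycin A and 17.6 FPKM with vehicle, and the groups of recipients, at 14.3 and 13.2 FPKM, overlapped. Rem1 was lowest with oligomycin A, at 2.16 FPKM, then 3.21 FPKM with vehicle, and the recipients of oligomycin A and of vehicle supernatant, at 6.84 and 6.61 FPKM, overlapped. For Rnd1 the oligomycin A libraries, at a mean of 14.6 FPKM, were above all others, and the other 3 groups overlapped.

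Likeness of pattern was measured by Pearson's r of log2(FPKM + 1) over the 12 libraries, which fall into the same 4 groups, so that any gene that differs between those groups can reach a high r. The genes most like Gem were Adamts1 (r = 0.981), Spry2 (0.979), Plk2 (0.973), Ifrd1 (0.967) and Nfkbiz (0.966). Among those most like Rhob were Klf2 (r = 0.992), Trib1 (0.986), Sgk1 (0.985) and Cyr61 (0.983). Rnd3 was most like the early genes Junb (r = 0.991) and Ier2 (0.990), Rnd1 was most like Elmsan1 (0.967) and Cdkn1a (0.962), and Rem1 most like Jagn1 (0.985) and Mmp2 (0.980). Among the 5 genes themselves r was 0.943 between Rhob and Rnd3, 0.849 between Gem and Rhob, -0.943 between Rem1 and Rhob and -0.668 between Gem and Rem1.

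**Figure D3:**
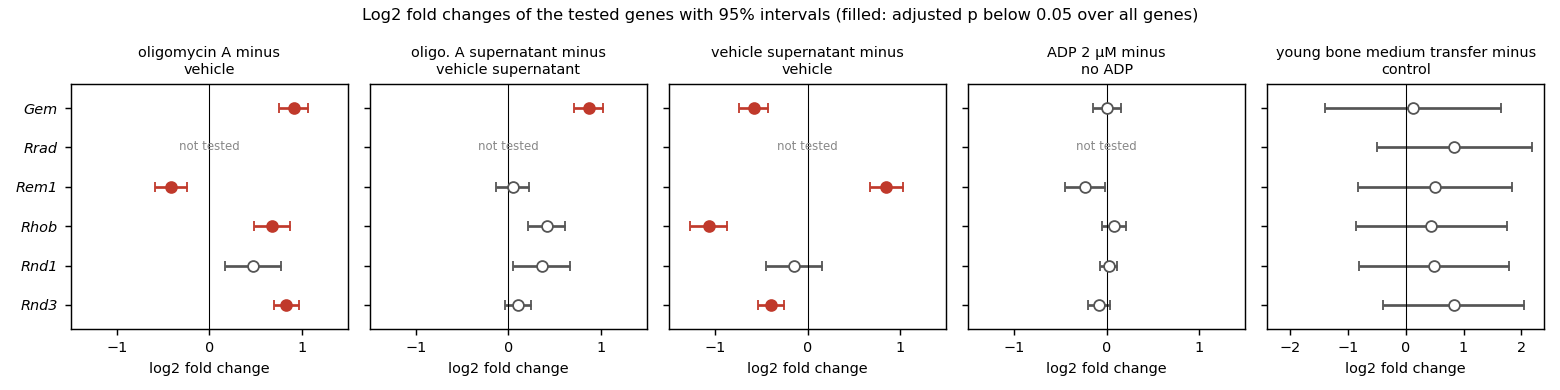
Log2 fold changes on the log2(FPKM + 1) scale of the genes that were tested, with 95% intervals from limma, in 5 comparisons; filled points passed an adjusted p of 0.05 over all genes, and the x axis of the bone panel is wider. Gem passes as higher in both oligomycin A panels and as lower in the vehicle pair, no gene passes in the ADP and bone panels, and the intervals in bone reach from -1.41 to 2.19.

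ADP at 2 µM for 2 h was not followed by a detected change in these genes. Of the 5 tested genes 0 passed in limma, where 0.0603% of 11604 genes did (0.0517% higher and 0.00862% lower), and 1, Rem1, had an unadjusted p below 0.05. Gem had 8.53, 7.56 and 7.21 FPKM with ADP and 7.49, 7.83 and 7.86 FPKM without it, with overlap and a log2 fold change of 0.00 (95% interval -0.15 to 0.15). Rhob had 43.7, 40.6 and 38.3 FPKM with ADP and 38.6, 37.2 and 39.7 FPKM without, a log2 fold change of 0.08 (-0.05 to 0.21). Rem1 had 1.76, 2.29 and 1.87 FPKM with ADP and 2.37, 2.33 and 2.77 FPKM without. Its groups did not overlap, and its log2 fold change was -0.23 (-0.45 to -0.02; limma, adjusted p = 0.842).

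Rnd3 had a log2 fold change of -0.08 (-0.20 to 0.04) and Rnd1 of 0.02 (-0.07 to 0.11) under ADP. Under ADP 0 genes of these lists passed in limma, and 3 had an unadjusted p below 0.05, Rem1 among them. Of all 11604 genes 678 had one. Rrad had 0.651 to 0.974 FPKM with ADP and 0.613 to 0.913 FPKM without, and Rasd1 0.122 to 0.203 FPKM with ADP and 0.0668 to 0.171 FPKM without.

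Levels in this table were lower for several of the genes than in the vehicle cells of the oligomycin A table. Rhob averaged 40.9 ± 2.73 FPKM with ADP and 38.5 ± 1.21 without, beside 125 ± 9.12 in the vehicle cells, and Gem 7.77 ± 0.685 and 7.73 ± 0.209, beside 18.7 ± 0.758 (SD, n = 3 each). The tables were normalized separately, so this difference was not tested.

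In cultured bone fragments of young mice the libraries were far more variable. Of the 6 genes that passed the filter (the 5 above and Rrad) 0 passed the test in limma, 0 had an unadjusted p below 0.05, and 0.0243% of 16438 genes passed (0.0122% higher and 0.0122% lower). In the lists of GTPases, partners, regulators and transcription factors 0 genes passed in limma and 0 had an unadjusted p below 0.05. Fold changes of the 6 genes ranged from 0.12 for Gem to 0.84 for Rrad on the log2 scale, beside a median of 0.45 over all genes, and with median-of-ratios scaling the median of all genes was 0.07 and Gem turned to -0.38.

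In the transfer libraries Rrad had 7.56, 10.3 and 2.01 FPKM, against 3.97, 1.41 and 3.21 FPKM in the controls, a log2 fold change of 0.84 (95% interval -0.50 to 2.19). Rnd3 had 2.30, 8.31 and 1.54 FPKM after transfer, against 1.501, 1.10 and 1.67 FPKM in the controls. Gem had 12.7, 19.1 and 2.87 FPKM after transfer, against 7.46, 7.02 and 11.3 FPKM in the controls. For each of these genes the groups overlapped, transfer replicate 2 was the highest library, and transfer replicate 3 lay at or below some of the controls. Transfer replicate 2 stood apart, with a summed FPKM of 482857, against 739927 to 1097830 in the other 5 libraries, 5.55% of it in the 3 non-coding genes named above, against 0.625% to 1.86%, and the highest estimated depth. Without it the log2 fold change was -0.37 for Gem, -0.07 for Rhob, 0.07 for Rnd1, 0.26 for Rnd3 and 0.46 for Rrad. Rnd1 had 6.87, 8.08 and 0.840 FPKM after transfer, against 2.66, 2.62 and 2.57 FPKM in the controls. Rhob had 3.98, 9.47 and 1.57 FPKM after transfer, against 2.21, 3.21 and 2.96 FPKM in the controls.

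Rem1 had 1.96, 2.11 and 0.333 FPKM after transfer, against 0, 0.620 and 1.62 FPKM in the controls, and Rasd1 had 2.82, 0.337 and 0.404 FPKM, against 0.669, 0.368 and 1.15 FPKM in the controls. Both overlapped between the groups.

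In this fit the spread was taken almost wholly from a trend shared by all genes, so the intervals do not reflect each gene's own spread. Of 5 marker lists of other cells, the summed levels of blood and adipocyte genes did not overlap between the groups, and those of endothelium, muscle and osteoclasts did. Blood and marrow genes, of which 12 of 12 were above 0, summed to 11076 to 22354 FPKM in the transfer libraries and 4164 to 8598 FPKM in the controls. Endothelial genes, 10 of 10 above 0, summed to 19.8 to 115.8 FPKM in the transfer libraries and 22.7 to 29.4 FPKM in the controls. Skeletal muscle genes, 11 of 11 above 0, summed to 13.0 to 23.3 FPKM in the transfer libraries and 5.09 to 17.5 FPKM in the controls. Adipocyte genes, 7 of 7 above 0, summed to 11.9 to 99.6 FPKM in the transfer libraries and 4.12 to 5.53 FPKM in the controls. Cfd, the adipocyte gene of adipsin, passed (log2 fold change 3.61, limma, adjusted p = 0.000256). With median-of-ratios scaling and after rescaling to one total 0 adipocyte genes passed. Osteoclast genes, 8 of 8 above 0, summed to 804 to 4970 FPKM in the transfer libraries and 697 to 869 FPKM in the controls. In the blood list 3 of 11 tested genes had an unadjusted p below 0.05, beside 368 of all 16438 genes. The part of these other cells in the values of the GTPase genes was not tested. In bulk bone, more cells of a type and more RNA per cell cannot be told apart.

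Old cortical bone had the lowest mean levels of Gem, Rnd3 and Rnd1 among the 9 groups. For Rnd1, at a mean of 2.34 FPKM beside 2.62 FPKM in the young controls, the libraries of these groups overlapped. Gem had 0.936, 2.48 and 0.449 FPKM, Rnd3 0.631, 1.09 and 0.897 FPKM, and Rnd1 3.26, 2.86 and 0.907 FPKM. Rhob, at 10.9, 5.64 and 9.41 FPKM, was the highest of the 8 genes, and Rrad followed at 4.70, 4.85 and 2.15 FPKM. In replicate 2 Rhob and Rrad lay within 1 FPKM of each other. Rem1 had 0.723 to 1.00 FPKM, Rasd1 0.494 to 1.04 FPKM, and Rem2 was listed at 0 in 2 of the 3 libraries. Blood and marrow marker genes made up 53.1% to 54.1% of the summed FPKM in these libraries, against at most 4.63% in young bone, and their part in these levels was not tested.

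The makeup of the RGK family differed between the tables. Rrad made up 63.4% ± 9.26 of the summed RGK level in old cortical bone, 34.7% ± 2.58 in the young transfer group and 22.8% ± 9.18 in the young controls (SD, n = 3 each). In the MLO-Y4 groups it made up at most 7.15% on average, and Gem made up 62.4% to 92.3%. The 11 muscle genes summed to 22.1 to 41.1 FPKM in old bone, 13.0 to 23.3 FPKM in the young transfer group, 5.09 to 17.5 FPKM in the young controls and at most 1.97 FPKM in MLO-Y4 libraries, and their part in Rrad's share was not tested. These shares were taken within libraries, and differences between tables were not tested.

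**Figure D4:**
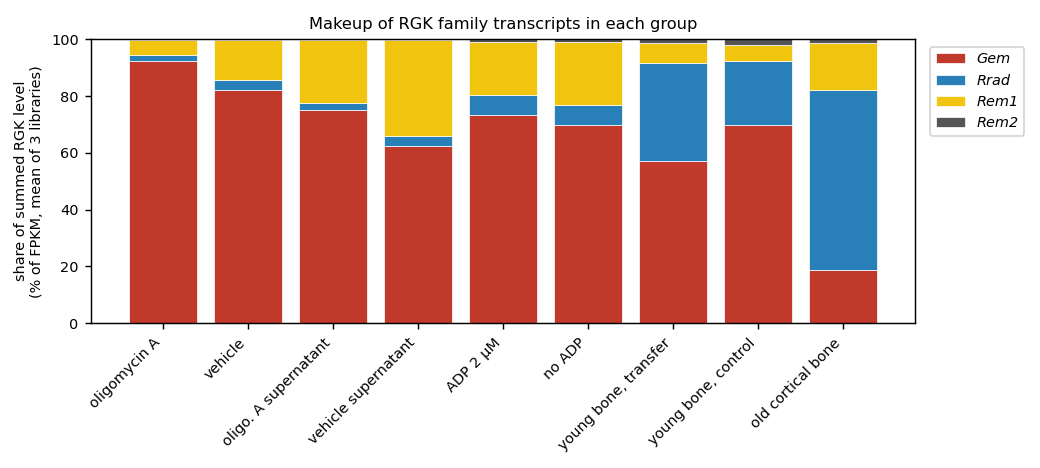
Share of each RGK gene in the summed FPKM of the 4 RGK genes, as the mean percent of 3 libraries per group. Gem takes the largest part in all MLO-Y4 and young bone groups, from 57.0% to 92.3%, and Rrad in old cortical bone, at 63.4%.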

How the data were processed

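Poly(A)-selected RNA was sequenced, per the labels' protocols, and the authors deposited FPKM values in 4 tables, 1 column per library. Which aligner and which quantifier were used is not stated; HTSeq and mm10 appear, without a role, among the submitters' processing notes. FPKM are not counts, so no count test was run, and depth was estimated from steps of low values times transcript length for single-transcript genes of the GENCODE M21 annotation (build GRCm38), which held 55154 of the 55335 gene IDs. Isoform values may have been summed by the authors, which is not stated.

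Values were tested as log2(FPKM + 1), which understates changes of low genes, with limma 3.58.1 in R 4.3.3 (trended variance prior). Genes needed a mean of at least 1 FPKM over the libraries of the fit, and Benjamini-Hochberg adjusted p below 0.05 over all genes was the threshold. The 4 oligomycin A groups shared 1 fit of 12 libraries; ADP and young bone had 1 fit each of 6. Tests were made only within a table, and the fits were tested on simulated data. The members, gene lists and tests were chosen with earlier results of these data known. Named besides the 8 genes were up to 4 called genes per list and comparison, by p, and the genes of highest r (5 for Gem and Rhob, 2 for the others), without predicted names. Alternatives were another pseudocount, no filter, other scalings, a replicate block, fits of 6 libraries and the omission of single libraries. Some items that these rules name are not reported here.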

Additional observations from a re-analysis of the deposited data

Results flagged for a closer look

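Rnd3 is listed because its responses to the direct and the transferred exposure differed in the fit across all genes. Its log2 fold change was 0.10 in recipients of oligomycin A supernatant against vehicle supernatant and 0.84 in oligomycin A against vehicle cells, and the difference, recipients minus treated cells, was -0.73 ± 0.089 (SE). Recipients were exposed for 2 h and treated cells for 1 h, so duration and medium cannot be told apart, and the genes were chosen with both responses known, so the difference is a description and not independent support.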

How the results depend on the processing

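Counts for oligomycin A, its supernatant and the difference of responses are descriptions, since the genes were chosen with these known. In the vehicle pair, whose libraries are shared with those comparisons, Rhob and Rem1 passed in all 12 alternative fits. Same-numbered samples did not deviate together (r from -0.228 to 0.0587, with 2, 0, 4, 0 and 0 of 6 samples correlating best with their own number under oligomycin A, its supernatant, the vehicle pair, ADP and young bone), so the replicate block is given here alone: it changed the call of none of the genes tested here.

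Of the 8 genes, 5 were tested in each MLO-Y4 comparison and 6 in young bone. Of those tested, 4 passed under oligomycin A (3 to 4 when single libraries were left out), 1 under its supernatant (1 to 2), 1 in the difference of responses (1), 4 in the vehicle pair (4, and 2 rescaled to one total) and 0 under ADP and in young bone (0). The shares of all tested genes that passed were, in the same order, 5.34%, 0.386%, 0.445%, 14.7%, 0.0603% and 0.0243%.

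Over all genes, 636 passed under oligomycin A: 386 without the filter, 1168 with median-of-ratios scaling, 276 rescaled to one total, 412 in 6 libraries and 265 to 652 leaving out single libraries. For its supernatant 46 passed: 23 without the filter, 77 with median-of-ratios scaling, 17 rescaled to one total, 28 with the replicate block, 7 in 6 libraries and 22 to 59 leaving out libraries. For the difference 53 passed: 100 with median-of-ratios scaling, 31 rescaled, 35 with the block and 35 to 70 leaving out libraries. For the vehicle pair 1746 passed: 587 rescaled, 829 in 6 libraries and 1002 to 1359 leaving out libraries. For ADP 7 passed: 0 without the filter, 0 with the block and 0 to 40 leaving out libraries, the 40 without ADP replicate 1. For young bone 4 passed: 0 without the filter or with median-of-ratios scaling, 2 rescaled, 2 with the block and 0 to 7 leaving out libraries.

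Changes of sign were seen only for fold changes that had not passed. Under ADP Gem became -0.012 rescaled to one total and ranged from -0.058 to 0.050 leaving out libraries. In young bone Gem became -0.38 and Rnd1 -0.0066 with median-of-ratios scaling, and leaving out libraries Gem ranged from -0.37 to 0.82 and Rhob from -0.074 to 0.94. In the difference of responses Gem ranged from -0.10 to 0.023 and Rnd1 from -0.26 to 0.048 leaving out libraries. The cause of these changes was not tested. Rem2, Rrad and Rasd1 were under the filter in MLO-Y4 cells, and what depth limits there and in young bone was not tested.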
